A study of Mus musculus with 6 samples.

Results

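Cells of the basophil lineage and myeloid progenitors are scarce among the leukocytes of an inflamed spinal cord, and here they shared a cluster with dividing T cells. The cells described are those of deposited cluster 11 with fewer than 3 transcripts, counted by unique molecular identifier (UMI), of *Cd3d*, *Cd3e* and *Cd3g* together. These genes encode the invariant chains of the T cell receptor complex. The cells were thus chosen by measured values, the deposited cluster number and the Cd3 UMIs, so what sets the cluster or its T cells apart is a description and not a test. They numbered 190 of the 617 cells of cluster 11 and of 38057 cells in all, and the other 427 cells of the cluster held 3 or more Cd3 UMIs.

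CD45+ leukocytes were sorted from the spinal cords of C57BL/6 mice with adoptively transferred experimental autoimmune encephalomyelitis (EAE), an animal model of multiple sclerosis. All recipients had received IL-23-polarized CD4+ T cells reactive to the myelin peptide MOG35-55, and no single-cell library came from mice without a transfer. Recipients were young or middle-aged, the ages being given in these words by the labels, and spinal cords were taken on day 6 or day 10 after transfer. Each of the 4 libraries pooled 4 spinal cords of 1 age and 1 day, so there were no replicates, and age and day cannot be told apart from any other difference between 2 libraries. The libraries held 8315 to 10026 cells and 57337626 to 69859331 UMIs.

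Basophils are granulocytes that carry the high-affinity IgE receptor and store granule proteases such as *Mcpt8* and *Prss34*. They and mast cells arise from bone marrow progenitors through *Gata2*. Granulocyte-monocyte progenitors give rise to neutrophils and monocytes and make the proteases of the primary granules (*Elane*, *Prtn3*, *Ctsg*) and myeloperoxidase (*Mpo*), which mature cells store but largely stop transcribing. Both families lie in gene clusters. In GRCm38 (the assembly named mm10 by the authors), *Mcpt8* (chr14:56082166-56085273, minus strand) is 14.6 kb from *Ctsg* (chr14:56099881-56102574, minus strand), with *Gzmb* and *Cma1* in the same stretch of chromosome 14. *Elane* (chr10:79886247-79888215, plus strand) is 3.07 kb from *Prtn3*. *Prss34* lies at chr17:25298394-25300165, *Mpo* at chr11:87793581-87804413 and *Prg2* at chr2:84980461-84983632, all on the plus strand.

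The members were few and differed in number between the libraries. The young day 6 library held 49, the middle-aged day 6 library 22, the young day 10 library 93 and the middle-aged day 10 library 26. They made up 0.589% of the young day 6 library (95% exact binomial interval 0.436 to 0.778%) and 0.219% of the middle-aged one (0.138 to 0.332%). On day 10 they made up 0.945% of the young library (0.763 to 1.16%) and 0.263% of the middle-aged one (0.172 to 0.386%). Their share was higher in young mice on both days, by 2.69-fold on day 6 (interval 1.59 to 4.66) and 3.59-fold on day 10 (2.30 to 5.78). These and all other intervals cover counting error only, not the spread between mice. With 2 libraries of each age, an exact two-sided permutation test over the 4 libraries gave p = 0.3333, the smallest this design allows. The permutation did not keep libraries of the same day together. Among cells outside the neutrophil-like clusters 0, 3 and 6, the members made up 0.75% of the young and 0.376% of the middle-aged library at day 6, then 1.31% and 0.349% at day 10. A share of sorted cells depends on every other cell type in the sort, and the number of cells per cord was not measured.

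The T cells of the same cluster did not follow this pattern. Their share was 1.18-fold higher in young mice on day 6 (interval 0.777 to 1.80). On day 10 it was 0.867-fold of the middle-aged share (0.694 to 1.08), and both intervals include 1. The higher young share at day 10 was not particular to the members. In cluster 12, another cluster of dividing cells described below, it was 6.92-fold (interval 4.26 to 11.9). The day 6 ratio of cluster 12 was 1.81, from 6 young and 4 middle-aged cells, and its interval included 1 (0.429 to 8.71). Neutrophil-like cluster 6 held 515 cells in the young day 10 library against 83 in the middle-aged day 10 library. Its day 6 counts were 60 and 43, young first.

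**Figure D1:**
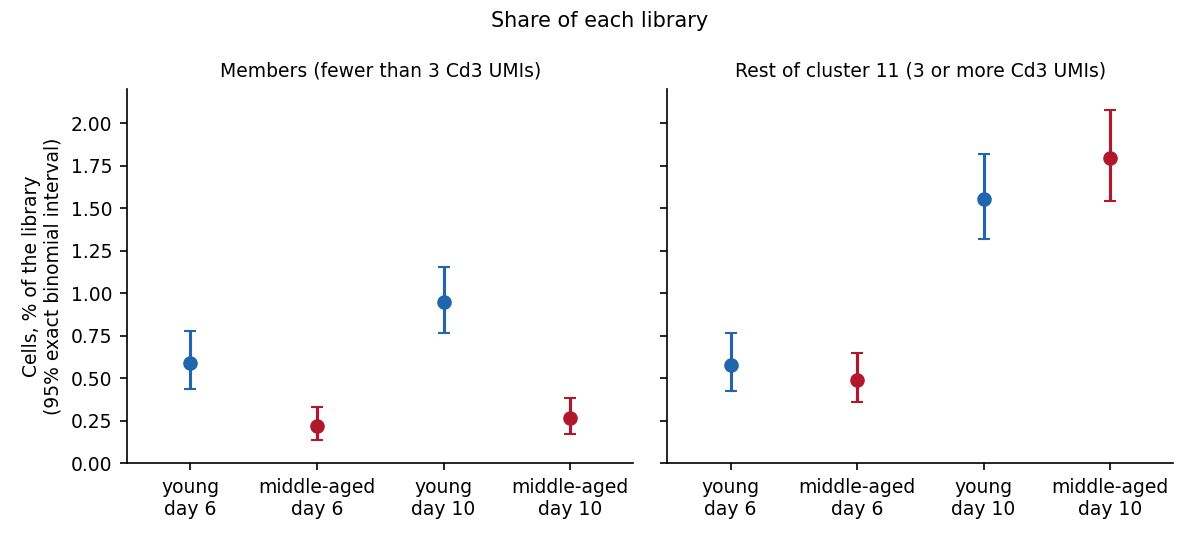
Share of each library, in percent of its cells, for the 190 members (left) and for the rest of cluster 11 (right). Points are single libraries of 4 pooled spinal cords (blue, young; red, middle-aged), bars are 95% exact binomial intervals; the members sit at 0.589% and 0.945% in the young and at 0.219% and 0.263% in the middle-aged libraries.

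Few cells of the cluster lay near the threshold. Of the members, 172 had no Cd3 UMI, 15 had 1 and 3 had 2. Just above it, 2 cells had 3 UMIs, 3 had 4 and 4 had 5. The 3 members with 2 Cd3 UMIs also held 4, 7 and 2 UMIs of the T cell receptor genes *Trac*, *Trbc1* and *Trbc2*, and none of *Mcpt8*, *Prss34*, *Elane*, *Ctsg* or *Mpo*. The 2 cells with 3 Cd3 UMIs held 18 and 3 receptor UMIs and likewise none of these markers. A Cd3 UMI also occurred in 4.78% of the cells of cluster 0 (median 2269 UMIs per cell) and 6.98% of cluster 1 (median 9106), a neutrophil-like and a monocyte/macrophage-like cluster that should lack these genes. The T cell list (8 genes) gave 3 or more UMIs in 8 members in all, 3 of them in sub-cluster 2, 2 each in sub-clusters 3 and 5 and 1 in sub-cluster 6. One member of the young day 10 library had a cell barcode that also occurs in another library. No doublet caller was run, and the members were deep: their median was 11968 UMIs per cell in the young day 6, 11062 in the middle-aged day 6, 15340 in the young day 10 and 12299.5 in the middle-aged day 10 library, against 4704.5 to 6196 for all cells of a library. The part of this depth, or of cells sharing a barcode, in what follows was not tested.

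Against all 37867 other cells, the largest ratios among genes with a UMI in 25% or more of the members were those of *Ctsg*, *Mpo* and *Elane*. Values are UMIs summed over cells and scaled to a total of 1000000 over all genes (CPM), and log2 ratios add 1 CPM to both sides. *Ctsg* (cathepsin G) stood at 1186 CPM in the members and 0.986 CPM elsewhere, a log2 ratio of 9.22. *Mpo* stood at 918 against 1.67 CPM (8.43) and *Elane* (neutrophil elastase) at 1716 against 7.79 CPM (7.61). *Gata2*, the transcription factor of stem cells, basophils and mast cells, stood at 154 against 0.107 CPM, and *Myb*, a factor of immature blood cells, at 132 against 4.79 CPM. *Ms4a3*, *Prtn3* and *Sox4* were also among the 20 leading genes, and the rest were largely histone and mitosis genes, such as *Hist1h1b* (1056 against 57.1 CPM) and *Birc5* (260 against 18.5 CPM).

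The 6 markers that define the label were not spread evenly over the members. *Ctsg* had a UMI in 104 of 190 cells, *Elane* in 79 and *Mpo* in 65, while *Mcpt8* (mast cell protease 8, a basophil protease despite its name) had one in 40 and *Prss34* (a basophil serine protease) in 22. *Prg2*, the eosinophil major basic protein, went against the label: its 2624 UMIs came from 2 cells of the young day 10 library. One of these cells held 1874 UMIs of *Prg2* with 70 of *Prg3*, 32 of *Cebpe* and 27 of *Mcpt8*, and the other held 750 UMIs of *Prg2* with 14 of *Prg3* and 8 of *Mcpt8*. Neither held a UMI of *Epx*, the eosinophil peroxidase. No other member held a *Prg2* UMI.

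Outside the members the label markers other than *Prg2* were nearly absent, apart from cluster 12. *Prg2* reached 3 or more UMIs in 2 members and in 3 other cells, all 3 in the B cell-like cluster 4. Summed *Mcpt8* and *Prss34* reached 3 or more UMIs in 31 members and in 1 of the 37867 other cells. Summed *Elane*, *Ctsg* and *Mpo* reached 3 or more in 95 members and in 29 other cells, 24 of which were among the 160 cells of cluster 12, 2 among the T cells of cluster 11, 2 in cluster 5 and 1 in cluster 1. Cluster 12, another cluster of dividing cells, differed from the members in its neutrophil granule genes. *Camp* (cathelicidin) stood at 51526 CPM there with a UMI in 160 of 160 cells, while in the progenitor cells of sub-cluster 2 described below it stood at 1661 CPM with a UMI in 7 of 39 cells. Its *Elane* stood at 735 CPM, and *Elane* had a UMI in 30 of its cells.

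Clustering the members on their own, with cell cycle, mitochondrial, ribosomal and T cell receptor genes left out, gave 7 sub-clusters. They were named from marker lists chosen with earlier results of these data known, and left unnamed where their leading genes were divided between lists. *Ctsg*, a progenitor list gene, was among the leading genes of the basophil-like cells, behind 4 basophil list genes. The largest held 66 cells, led by *Ctsg*, *Elane* and *Prtn3*. It was a dividing group, called *Ly6c2*-high though *Ly6c2* was not particular to it, and was left without a cell type name. The others were granulocyte-monocyte progenitor-like (39 cells), basophil-like (35), a group led by *Ctsg*, *Gata2* and *Angpt1* (18), B cell-like (11), a dividing group of mixed genes (11) and a group led by *Cpa3*, *Cma1*, *Gata2* and *Scin* (10). Basophil-like cells were thus 18.4% of the members (interval 13.2 to 24.7%), granulocyte-monocyte progenitor-like cells 20.5% (15.02 to 27.0%) and the *Ly6c2*-high group 34.7% (28.0 to 42.0%).

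**Figure D2:**
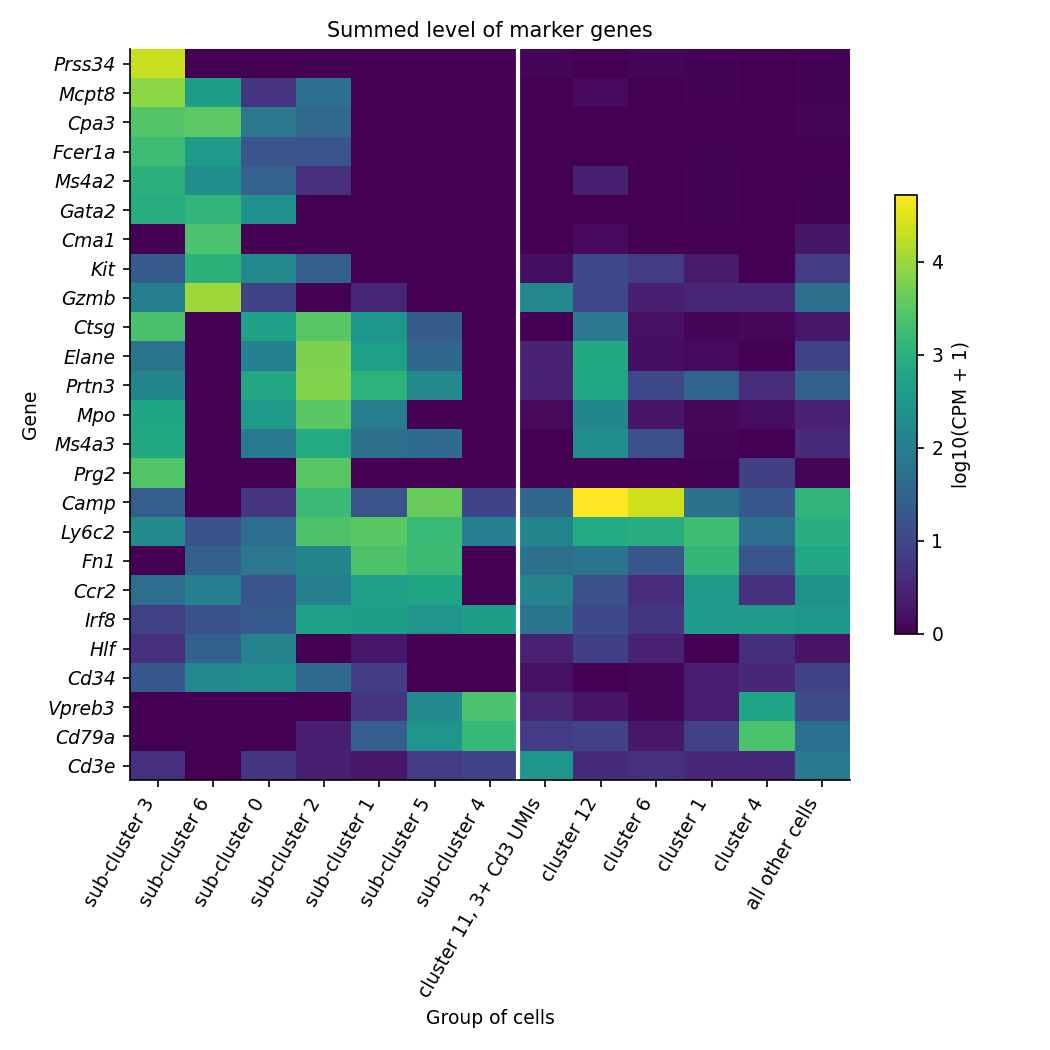
Summed level of 25 marker genes (rows) in the 7 sub-clusters of the members (left of the white line) and in other groups of cells (right), as log10(CPM + 1) in colour. *Prss34* stands at 20610 CPM in sub-cluster 3 and at 0 UMIs in the other 6, *Elane* and *Mpo* peak in sub-cluster 2, and *Camp* peaks in cluster 12.

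In the basophil-like cells all 10 genes of the basophil list were 4-fold or more higher than in the other cells, where 4.57% of 18345 genes passed the same fold, and their median log2 ratio was 9.77. *Prss34* stood at 20610 CPM (interval 20082 to 21149) with a UMI in 22 of 35 cells, and *Mcpt8* at 8016 CPM (7687 to 8354) with a UMI in 29. Among the other list genes, the mast cell and basophil carboxypeptidase *Cpa3* stood at 2815 CPM, the alpha chain of the IgE receptor *Fcer1a* at 1750, its beta chain *Ms4a2* at 1054 and *Gata2* at 861 CPM. *Fcer1g*, the signalling chain that many myeloid cells share, stood at 1818 CPM against 2330 CPM in the other cells. Of the mast cell list (6 genes) no UMI was found, which allows up to 3 UMIs in 35 cells.

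The sequence before the start of the basophil genes is shown because *Gata2* was found in 33 of the 35 cells. The motif searched was GATAA, the core bound by GATA factors, and TTGCNNAA, a core of C/EBP sites, each on both strands and marked by capitals. GATAA occurred in 13.3% and TTGCNNAA in 5.46% of 32851 RefSeq promoter windows of 150 bases before the start. A match is a description of letters and not a site. The windows below end at the base before the transcription start (RefSeq, GRCm38.p6), read 5′ to 3′ on the strand of the gene.
Prss34 (basophil protease, chr17:25298244-25298393, plus strand): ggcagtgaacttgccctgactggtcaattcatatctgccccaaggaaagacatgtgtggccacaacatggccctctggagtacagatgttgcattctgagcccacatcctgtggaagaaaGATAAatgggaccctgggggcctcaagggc
Cpa3 (basophil and mast cell carboxypeptidase, chr3:20242182-20242331, minus strand): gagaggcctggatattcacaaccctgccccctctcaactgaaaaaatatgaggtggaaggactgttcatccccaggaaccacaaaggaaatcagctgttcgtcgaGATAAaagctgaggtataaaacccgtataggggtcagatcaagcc
Fcer1a (IgE receptor alpha chain, chr1:173227230-173227379, minus strand): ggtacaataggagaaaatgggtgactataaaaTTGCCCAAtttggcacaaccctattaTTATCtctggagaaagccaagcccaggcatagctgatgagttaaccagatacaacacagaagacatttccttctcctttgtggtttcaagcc
Ms4a2 (IgE receptor beta chain, chr19:11623720-11623869, minus strand): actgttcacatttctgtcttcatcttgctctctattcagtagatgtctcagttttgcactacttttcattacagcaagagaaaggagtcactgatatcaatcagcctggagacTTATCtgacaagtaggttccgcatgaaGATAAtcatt
Ctsg (protease shared with the progenitors, chr14:56102575-56102724, minus strand): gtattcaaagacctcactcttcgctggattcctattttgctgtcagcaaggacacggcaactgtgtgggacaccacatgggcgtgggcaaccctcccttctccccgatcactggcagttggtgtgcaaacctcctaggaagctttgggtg
In this window *Prss34*, *Cpa3* and *Fcer1a* each held 1 GATAA and *Ms4a2* held 2, and those shown as TTATC are on the opposite strand. *Fcer1a* also held 1 TTGCNNAA. The *Ctsg* window held neither motif, nor did that of *Cma1*, which is not shown. The windows of *Mcpt8*, *Elane*, *Mpo* and *Prtn3* overlap annotated exons and are not shown. They held neither motif, so the basophil protease *Mcpt8* had no GATAA in its window.

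Among the libraries, the basophil-like cells of young day 6 mice stood apart. There were 5 such cells in the young day 6 library, 7 in the middle-aged day 6, 16 in the young day 10 and 7 in the middle-aged day 10 library. *Prss34* gave 0 UMIs in the 5 young day 6 cells, 880 UMIs in the 7 middle-aged day 6 cells, 4036 in the 16 young day 10 cells and 854 in the 7 middle-aged day 10 cells. *Mcpt8* likewise gave 4, 708, 1341 and 191 UMIs. The 5 young day 6 cells were shallow, with a median of 2998 UMIs against 5802 to 9494.5 in the other libraries, and 2 of them had fewer than 2000 UMIs. They nevertheless held *Gata2* (26 UMIs), *Cd200r3* (13), *Ms4a2* (12) and *Hdc* (85, the histamine-forming enzyme). As a share of the library, basophil-like cells were 0.0601% and 0.0698% in young and middle-aged mice on day 6, and 0.163% and 0.0709% on day 10, and the intervals of the age ratio included 1 on both days (0.216 to 3.15 and 0.892 to 6.59).

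The basophil-like cells were not uniform in their *Prss34* and chemokine levels. Across the 33 of them with 2000 or more UMIs, the CPM of *Prss34* in a cell rose with that of *Mcpt8* (Spearman rho 0.875), *Cpa3* (0.838), *Ctsg* (0.837) and *Fcer1a* (0.725). It fell with that of *Ccl9* (rho -0.817), *Ccl4* (-0.728), *Ccl3* (-0.722) and *Ccl6* (-0.61), chemokines that attract monocytes, neutrophils and lymphocytes. The rest of the basophil list rose less or fell: *Ms4a2* had rho 0.391, *Cd200r3* -0.037, *Cyp11a1* -0.111, *Il4* -0.202, *Hdc* -0.367 and *Gata2* -0.423. Among the mediators, *Alox5* went the other way, with rho 0.524. The summed cell cycle genes had rho 0.582 and the cell's total UMIs rho 0.64. These are cells of 4 libraries that share library and depth, and *Prss34* takes up a part of every total, so the coefficients are given as a description.

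Summed over cells, the 19 basophil-like cells with 20 or more *Prss34* UMIs held 2287 CPM of *Ccl4*, 2921 CPM of *Ctsg* and 8325 CPM of cell cycle genes, at a median of 10173 UMIs per cell. The 16 with fewer held 22887 CPM of *Ccl4*, 692 CPM of *Ctsg* and 2024 CPM of cell cycle genes, at a median of 3530.5 UMIs. The cut at 20 was set after the values were seen. In each of the 3 libraries with cells on both sides, *Ccl4* was higher in the cells with fewer *Prss34* UMIs. It stood at 4708 CPM in the *Prss34*-rich and 38338 CPM in the other cells of the middle-aged day 6 library, at 910 and 13879 CPM in the young day 10 library, and at 4039 and 30801 CPM in the middle-aged day 10 library.

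**Figure D3:**
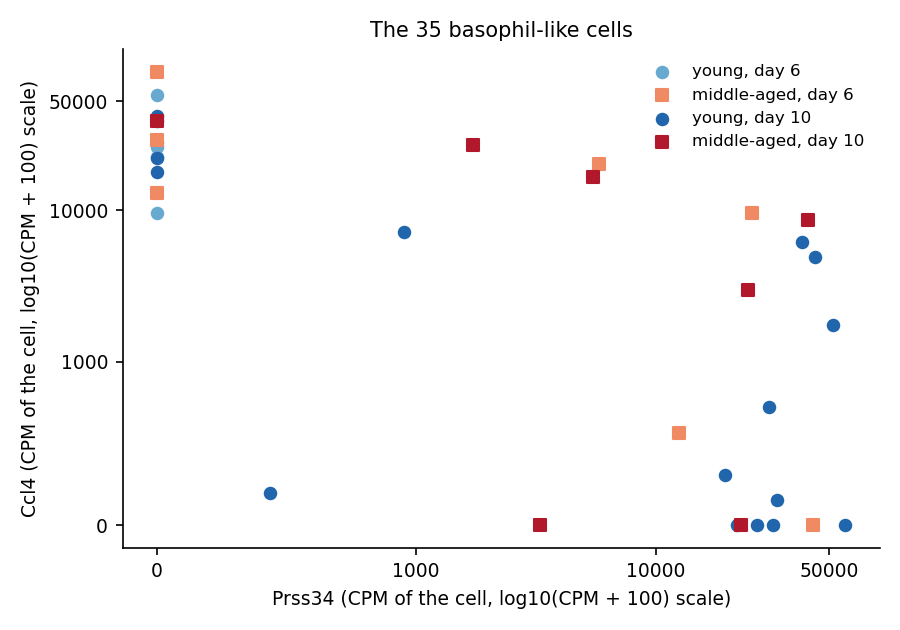
*Prss34* (x axis) and *Ccl4* (y axis) in each of the 35 basophil-like cells, as CPM of the cell on a log10(CPM + 100) scale, with symbols for the 4 libraries. Cells without *Prss34* sit at the left with high *Ccl4*; all 5 young day 6 cells are among them.

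Of the 16 basophil mediators, 9 were 4-fold or more higher in the basophil-like cells than in the other cells (against 4.57% of all genes). *Il4*, the type 2 cytokine, stood at 154 CPM in 21 of 35 cells against 0.382 CPM elsewhere, with at most 19 UMIs in a cell. *Il6* stood at 697 against 17.9 CPM, the hepatocyte growth factor *Hgf* at 236 against 4.96, *Alox5* (5-lipoxygenase, for leukotrienes) at 296 against 13.1 and *Csf1* (macrophage colony-stimulating factor) at 786 against 176 CPM. *Il13* gave 1 UMI in these cells. Among cytokine receptors, *Il1rl1* (the IL-33 receptor) stood at 161 against 2.66 CPM and *Il3ra* (an IL-3 receptor chain) at 107 against 25.8 CPM, while *Kit* (the stem cell factor receptor) had 6 UMIs.

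The 10 cells led by *Cpa3* and *Cma1* held genes of both basophils and mast cells. The mast cell chymase *Cma1* stood at 2408 CPM, all from 4 cells, *Kit* at 1069 CPM in 10 of 10 cells and *Gzmb* (granzyme B) at 10913 CPM in 10 of 10. *Il13* stood at 655 CPM in 7 cells and *Il1rl1* at 712 CPM in all 10. *Prss34* gave no UMI, *Mcpt8* gave 29, and of the 6 mast cell genes only *Cma1* was found: *Tpsb2*, *Tpsab1*, *Mcpt4*, *Mrgprb1* and *Mrgprb2* gave none. Of the 10 basophil list genes, 9 were 4-fold or more higher than in the other cells (against 7.76% of all genes), and with *Cma1* beside them the cells were left unnamed. There were 6 in the young day 6, 1 in the middle-aged day 6, 0 in the young day 10 and 3 in the middle-aged day 10 library.

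Granulocyte-monocyte progenitor-like cells held the primary granule genes. *Elane* stood at 6125 CPM (interval 5931 to 6323), *Prtn3* (proteinase 3) at 6510, *Mpo* at 3166 and *Ctsg* at 3049 CPM, and *Ms4a3*, a gene of these progenitors, at 744 CPM. Of the 8 list genes, 6 were 4-fold or more higher than in the other cells (against 2.82% of all genes), and the median log2 ratio was 7.72. *Kit* (24.2 CPM) and *Cd34* (40.3 CPM), which mark the earliest of these progenitors, were low. *Ctsg*, the protease that basophil-like cells share with them, came without *Elane* there: 18 of 35 basophil-like cells had 3 or more UMIs of both protease sets, but 1 of 35 had 3 or more of *Elane*.

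**Figure D4:**
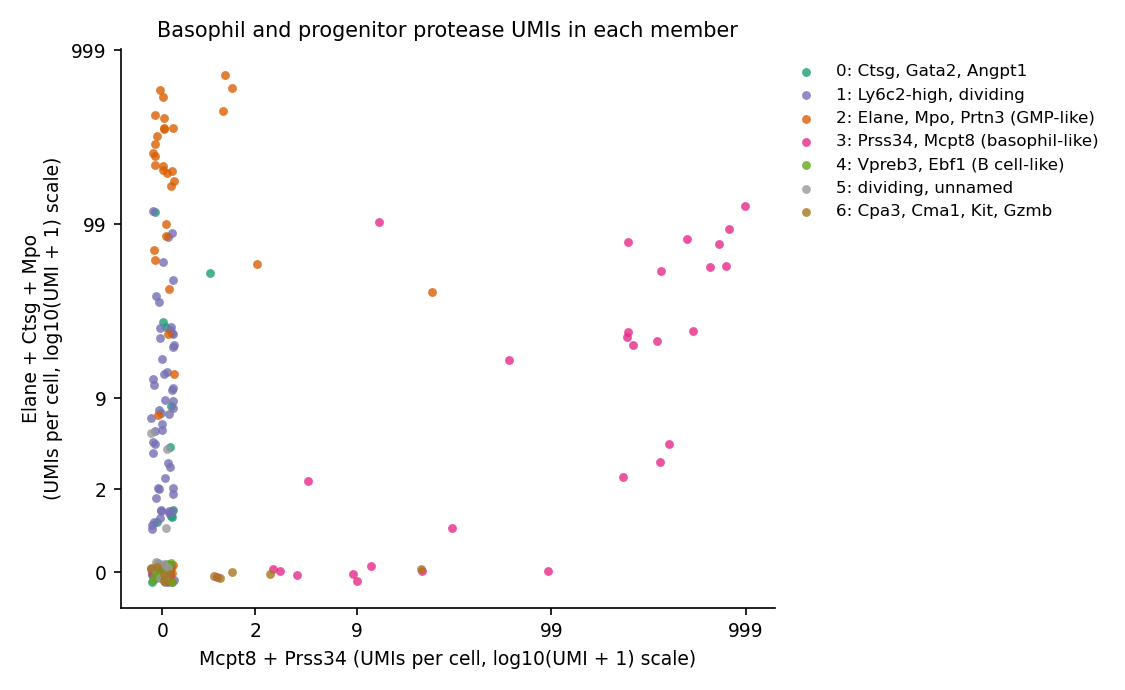
UMIs per cell of *Mcpt8* plus *Prss34* (x axis) and of *Elane*, *Ctsg* and *Mpo* together (y axis) in each of the 190 members, on log10(UMI + 1) scales with a small random shift, coloured by sub-cluster (GMP, granulocyte-monocyte progenitor). The sets reach 3 or more UMIs together in 18 basophil-like cells and 1 cell of sub-cluster 2.

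Within these 39 cells, the monocyte and granulocyte factors rarely met. *Irf8*, a factor of the monocyte and dendritic cell lines, reached 3 or more UMIs in 21 cells, and *Cebpe*, a factor of granulocyte maturation, in 12, but both did in 2 cells. *S100a8*, a calprotectin gene of maturing neutrophils and monocytes, reached 3 UMIs in 15 cells, 7 of them with *Irf8*. *Camp* stood at 1661 CPM, and a single cell held 941 of its 1030 UMIs.

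These cells came mainly from the young day 10 library. It held 26 of them, against 9 in the young day 6 and 2 in each middle-aged library. The 9 young day 6 cells had a median of 930 UMIs, and 6 of the 39 cells had fewer than 2000 UMIs, so the list itself was counted too: 3 or more UMIs of its 8 genes were found in 4 of the 9 young day 6 cells, 0 of the 2 middle-aged day 6 cells, 25 of the 26 young day 10 cells and 2 of the 2 middle-aged day 10 cells. Over all 190 members, regardless of sub-cluster, the list reached 3 UMIs in 22 young day 6, 9 middle-aged day 6, 79 young day 10 and 19 middle-aged day 10 cells. As a share of the library this was 0.265% (interval 0.166 to 0.40%) and 0.0898% (0.0411 to 0.17%) on day 6, and 0.803% (0.636 to 0.999%) and 0.192% (0.116 to 0.30%) on day 10, each with the young library first. On day 10 the intervals did not overlap between ages, and on day 6 they overlapped slightly. This count is not particular to the progenitor-like cells. The list reached 3 UMIs in 129 of the 190 members, 52 of them *Ly6c2*-high and 18 basophil-like. The share of all members already differed without overlap on both days, with day 10 intervals of 0.763 to 1.16% and 0.172 to 0.386%.

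The largest group was dividing and rich in monocyte genes. In its 66 cells *Ly6c2*, an inflammatory monocyte surface gene, stood at 3209 CPM against 906 CPM in the other cells and 1755 CPM in the monocyte/macrophage-like cluster 1. *Fn1* stood at 2491 CPM and *F13a1* at 1335 CPM, both genes of classical monocytes, while *Csf1r*, the macrophage colony-stimulating factor receptor (77.8 CPM), was below its level in cluster 1 (396 CPM). The cells also held *Prtn3* (1097 CPM, a UMI in 53 cells), *Elane* (456 CPM, 40 cells) and *Ctsg* (313 CPM, 44 cells), at lower levels than the progenitor-like cells. *Kit* gave no UMI. The summed monocyte list stood at 8863 CPM, with a range over libraries of 5489 to 10571 CPM. Of the 8 progenitor list genes, 6 were 4-fold or more higher than in the other cells (against 2.69% of all genes), and of the 7 monocyte list genes 1 was, so no name was given. *Ly6c2* was not particular to this group, since it reached 3 UMIs in 31 of the 39 progenitor-like cells. In the order young and middle-aged day 6, then young and middle-aged day 10, it stood at 1846, 2099, 3556 and 4275 CPM in this group. In the progenitor-like cells it stood at 3304, 0, 2524 and 2077 CPM, higher than here in the young day 6 library alone. In this group *Ly6c2* reached 3 UMIs in 62 of the 66, and 2 of the other 4 held *Cd209a*, a dendritic cell gene. The group held 12 cells in the young day 6, 5 in the middle-aged day 6, 41 in the young day 10 and 8 in the middle-aged day 10 library, and its share was 5.14-fold higher in young mice on day 10 (interval 2.38 to 12.7) and 2.89-fold on day 6 (0.949 to 10.5).

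**Figure D5:**
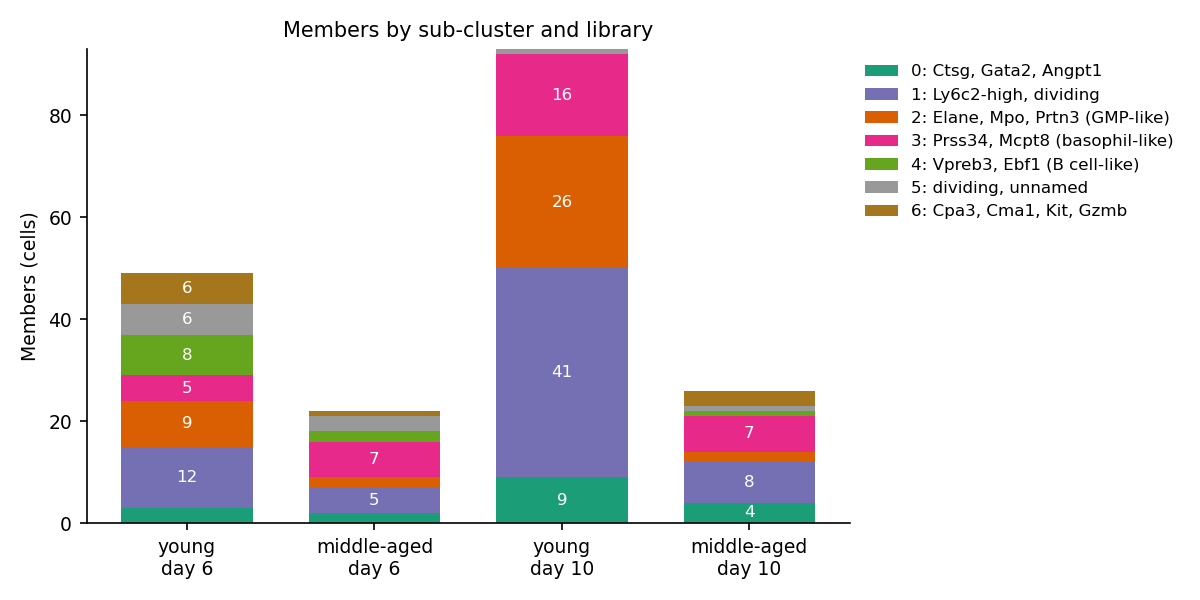
Number of members in each of the 7 sub-clusters (colours) by library; numbers are printed for 4 or more cells (GMP, granulocyte-monocyte progenitor). The young day 10 library holds 41 *Ly6c2*-high and 26 progenitor-like cells, the middle-aged day 10 library 8 and 2, while basophil-like cells number 16 and 7.

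The 18 cells led by *Ctsg*, *Gata2* and *Angpt1* held genes of more than one list and were left unnamed. All 8 stem and early progenitor genes were 4-fold or more higher than in the other cells (against 6.88% of all genes), with a median log2 ratio of 6.09 and a sum of 1989 CPM. All 8 granulocyte-monocyte progenitor genes were too, with a median of 4.54 and a sum of 2174 CPM, as were 8 of the 10 basophil genes (526 CPM). The stem and early progenitor list shares *Kit* and *Cd34* with the granulocyte-monocyte progenitor list and *Gata2* with the basophil list. The stem and early progenitor list reached 3 UMIs in 18 of 18 cells, the granulocyte-monocyte progenitor list in 15 and the basophil list in 11. Several of the basophil genes rested on 1 cell each: *Mcpt8* had 1 UMI, *Fcer1a* 4 and *Ms4a2* 7. Of the 18 UMIs of *Cpa3*, 15 came from 1 cell. *Ctsg* itself had a UMI in 7 cells, and 64.5% of its UMIs came from 2 of them. *Kit* (164 CPM) and *Myb* (522 CPM) had a UMI in 18 of 18 cells, *Gata2* (238 CPM) in 15, *Meis1* (127 CPM) in 13 and *Cd34* (210 CPM) in 10. *Hlf* and *Mecom*, factors of stem cells, had a UMI in 9 and 4 cells. *Car1*, an enzyme of red cell precursors, reached 3 UMIs in 3 cells, all of the young day 10 library. The libraries held 3, 2, 9 and 4 of these cells in the order young and middle-aged day 6, then young and middle-aged day 10.

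A small group was lymphoid. Its 11 B cell-like cells held *Vpreb3* at 2423 CPM, *Ebf1* at 1053 and *Cd79a* at 1410 CPM, and 6 of the 7 B cell genes were 4-fold or more higher than in the other cells (against 6.78% of all genes). *Vpreb1*, the surrogate light chain gene of B cell precursors, had 29 UMIs in 5 cells, and *Ms4a1*, which mature B cells express, had 10 UMIs in 1 cell against 1098 of 1360 cells with a UMI in the B cell-like cluster 4. None of the 6 label markers had a UMI. Of these cells 8 were in the young day 6, 2 in the middle-aged day 6, 0 in the young day 10 and 1 in the middle-aged day 10 library. The remaining 11 cells were led by mitosis genes (*Cenpe* at 232 against 8.36 CPM, *Cenpf* at 277 against 10.5 CPM). Of the 7 B cell genes 6 were 4-fold or more higher than in the other cells, and of the 8 progenitor genes 4 were (against 2.92% of all genes). They mixed monocyte, neutrophil and B cell genes: 733 UMIs of *Camp* came from 1 cell and *Cd79a* from 3 cells. They came from the young day 6 (6 cells), middle-aged day 6 (3) and the day 10 libraries (1 each).

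Most members shared the genes of the cell cycle. Each cell was thinned to 2000 UMIs, since members are deeper than most clusters, and counted as dividing with 5 or more UMIs of 73 S phase and G2/M genes. By this measure 157 of 181 members (86.7%, interval 80.9 to 91.3%) were dividing, and 9 members with fewer UMIs were left out. Without thinning, 96.8% of members reached 5 UMIs. The share was 98.6% in the T cells of the cluster, 100% in cluster 12 and 4.28 to 35.5% in the other deposited clusters. Cell cycle genes took part in making the clusters, so no test was made.

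Division differed among the sub-clusters. It reached 65 of 65 *Ly6c2*-high cells, 31 of 33 progenitor-like cells, 11 of 11 B cell-like cells and 10 of 11 cells of the mixed group. It reached 13 of the 18 cells led by *Ctsg* and *Gata2* (72.2%, interval 46.5 to 90.3%) and 24 of 33 basophil-like cells (72.7%, 54.5 to 86.7%). The median thinned count of the basophil-like cells was 5 UMIs, the cutoff itself, so their share depends closely on where the cutoff lies. The *Cpa3*- and *Cma1*-led group was lowest, with 3 of 10 cells (interval 6.67 to 65.2%). By library, the share of dividing members was 82.9% and 81.0% on day 6 and 92.5% and 76.9% on day 10, each with young mice first, and the intervals of the 4 libraries overlapped.

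Summed over all members, the markers differed between libraries. *Prss34* stood at 0 CPM in the young day 6 members (0 UMIs in 49 cells), at 3642 CPM in the middle-aged day 6, 2978 CPM in the young day 10 and 2537 CPM in the middle-aged day 10 members. *Mcpt8* stood at 48.9, 2935, 1012 and 585 CPM in the same order. The young day 6 library was lowest for both. *Elane* stood at 427, 49.7, 2632 and 1420 CPM and *Mpo* at 136, 294, 1347 and 971 CPM, highest in the young day 10 members. *Ctsg*, the protease of both lineages, stood at 232, 728, 1741 and 903 CPM.

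Between ages, few genes moved the same way on both days. Of 3495 genes with 100 or more UMIs in the members of the 4 libraries, 25 (0.715%) were 2-fold or more higher in middle-aged mice on both days and 16 (0.458%) were 2-fold or more lower. With 1 library for each age and day this is a count of sizes, not a test, and fewer cells of a type and less RNA per cell cannot be told apart in these sums. Of the basophil mediators, 6 of the 11 with enough UMIs were among the higher genes and 0 among the lower: *Il6*, *Ccl3*, *Ccl4*, *Ccl6*, *Csf1* and *Alox5*. For *Csf1* the young members held 29.7 CPM and the middle-aged 232 CPM on day 6, the day 10 values were 72.3 and 288 CPM, and 82.1% of its UMIs came from the basophil-like cells. *Ccl3* stood at 658 and 2272 CPM on day 6 and at 540 and 1254 CPM on day 10. The median log2 ratio of the mediators was 1.04 on day 6 and 1.21 on day 10, against -0.07 and -0.02 over all genes tested. Basophil-like cells were 10.2% of the young and 31.8% of the middle-aged members on day 6, and 17.2% of the young and 26.9% of the middle-aged members on day 10. Without them, 7 genes were higher, 5 of them among the 25. *Ccl3*, *Ccl4* and *Ccl6* were then no longer past 2-fold on both days. *Csf1*, *Il6* and *Alox5* fell below 100 UMIs without these cells, so they could not be counted. Within the basophil-like cells themselves, *Csf1* stood at 729 CPM in the young and 510 CPM in the middle-aged library on day 6, and at 549 and 1686 CPM on day 10. In the same cells *Ccl3* stood at 20537 CPM in the young and 10241 CPM in the middle-aged library on day 6, and at 3463 and 6415 CPM on day 10. Both were lower in the middle-aged library on day 6 and higher on day 10, unlike the sums over all members. On day 6 *Csf1* rested on 11 UMIs in 3 of 5 young and 24 UMIs in 3 of 7 middle-aged cells. No interval was computed for it, so its direction on that day is uncertain.

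Among single genes, the largest ratios were those of *Acod1*, *Rgs1*, *Csf1*, *Plk3* and *Vcan* upward and of *C1qc*, *Camp*, *C1qa*, *Hspa1a* and *Fcnb* downward. *Acod1*, the enzyme that makes itaconate in activated myeloid cells, had 119 CPM for the young members and 737 CPM for the middle-aged ones on day 6, and the day 10 values were 25.1 and 125 CPM (log2 ratios of 2.62 and 2.27). *Rgs1*, a regulator of chemokine receptor signalling, stood at 62.8 and 265 CPM and at 57.6 and 484 CPM. *Vcan* (versican) stood at 76.8 and 211 CPM and at 48.7 and 143 CPM. It stayed past 2-fold on both days without the basophil-like cells. *Acod1*, with 37.6% of its UMIs in those cells, then stayed past 2-fold on day 6 alone (log2 ratio 2.89). Its day 10 ratio without them was 0.086 and rested on 8 young and 2 middle-aged UMIs. *Rgs1*, *Csf1* and *Plk3* fell below the minimum UMIs without those cells and could not be counted. The complement genes *C1qa* and *C1qc*, made by macrophages and microglia, were lower. *C1qa* gave 42 UMIs in the young and 0 in the middle-aged members on day 6, at least 5.90-fold lower with 3 UMIs as the floor for the library, and 106 and 6 UMIs on day 10. *C1qc* gave 35 and 1 UMIs on day 6 and 72 and 2 on day 10. Macrophage list genes reached 3 or more UMIs in 88 members in all; their part in these ratios was not tested. *Camp* passed the rule with 2 and 0 UMIs on day 6, too few for a ratio, so its place among the 16 lower genes rests on day 10 alone. It gave 1783 and 2 UMIs there, of which 941 and 733 came from 2 cells of the young library. *Fcnb*, a lectin gene of neutrophil precursors, gave 26 and 1 UMIs on day 6 and 104 and 7 on day 10. Granule serine proteases, IgE receptor chains, cytokine receptors, lineage transcription factors and the S phase and G2/M lists had 0 genes past 2-fold on both days in either direction.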

How the data were processed

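Counts were deposited as UMIs per gene and cell. The authors sequenced 10x Genomics v3 libraries, made the counts with Cell Ranger 3.1.0 on mm10, filtered cells and genes in Seurat, integrated the libraries and clustered them, and deposited the cluster numbers used here. Bulk libraries of microglia were not used here, and 0 columns of other samples were present. The 190 cells and all gene lists were chosen with earlier results of these data known.

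Members were clustered with scanpy 1.11.5 (20 principal components of 2000 variable genes, 15 neighbours, Leiden resolution 0.6; cell cycle, mitochondrial, ribosomal and T cell receptor genes left out). Levels are summed UMIs in CPM with exact Poisson intervals, shares have exact binomial intervals and ratios between libraries exact conditional binomial intervals, all at 95% and for counting error only. With 1 library per age and day no gene was tested. Named genes were the label markers, list genes, and leading genes with 50 or more CPM and a UMI in 25% or more of a sub-cluster's cells, by ratio; for age, the 5 genes each way with the largest smaller-of-2-days ratio among those with 100 or more UMIs. Genes named outside these rules (such as *Car1*, *Prg3*, *Vpreb1* and *Cd209a*) were chosen after their values were seen. On simulated Poisson counts of 3495 genes with 200 changed 4-fold, the age rule recovered 184, with 0 false calls. The draws used the pooled rate of each gene, with no variation between cells, in cell mix or between libraries. They therefore cannot give the rate of false calls in these data. Promoters are RefSeq windows (GRCm38.p6), and *Prg2* had no entry. Gene positions are from GENCODE on GRCm38. edgeR 4.0.16 gave the alternative scaling (TMM) of the summed counts.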

Additional observations from a re-analysis of the deposited data

Results flagged for a closer look

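For 4 of the 6 label markers the ratio between ages pointed in opposite directions on the 2 days, and the difference was not tested, since each age and day had 1 library. Summed over the members, the level of *Prss34* in middle-aged relative to young mice was, in log2, at least 9.443 on day 6, where the young library had 0 UMIs and a floor of 3 was used, and -0.231 on day 10. For *Mcpt8* the same ratio was 5.88 on day 6 and -0.79 on day 10, for *Ctsg* 1.646 and -0.946, and for *Mpo* 1.105 and -0.472. The young day 6 library held 5 basophil-like cells, with a median of 2998 UMIs, and the part of this depth in the ratios was not tested. Few cells carried these ratios: in the middle-aged day 6 library 79.55% of the *Ctsg* and 91.55% of the *Mpo* UMIs came from 2 cells. Without the basophil-like cells the day 6 ratio was -0.42 for *Ctsg*, no longer opposite to day 10, and 0.141 for *Mpo*.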

How the results depend on the processing

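The count of members, the age ratio of their share and the sub-cluster shares that could be recomputed stayed near their values under most settings. Of the recomputed values for the comparisons, 84 stayed and 25 moved further. A count stayed within 1.5 times, and a share or age ratio inside the counting interval of its main value. The median ratio of the 6 markers stayed within the spread between libraries. A sub-cluster that vanished under a setting was not counted as moved. Only 4 of the 7 sub-clusters were left with no Cd3 UMI, and 6 at Leiden resolution 0.4 and at 1.0. With only cells lacking any Cd3 UMI, the share of the *Ctsg*-, *Gata2*- and *Angpt1*-led group became 15.698% and the *Ly6c2*-high share 46.512%. Leaving out members with 2 or more UMIs of the markers of each of 2 named lineages kept 99 of the 190 members. It made these shares 4.04% and 53.535%, and the B cell-like share 2.02%. Counting cells by 3 or more UMIs of a list in place of sub-clusters gave 67.895% for the granulocyte-monocyte progenitor and 36.842% for the basophil list. Leaving out each library in turn gave 25.773 to 38.298% for the *Ly6c2*-high group and 13.402 to 22.561% for the progenitor-like cells, both lowest without the young day 10 library. It gave 2.128 to 11.34% for the B cell-like, 3.546 to 10.309% for the mixed dividing and 2.837 to 10.309% for the *Cpa3*- and *Cma1*-led cells, each lowest without the young day 6 and highest without the young day 10 library. The median log2 ratio of the 6 markers over the other cells was 9.469, and 7.57 with 5 CPM added. *Prg2* turned to -0.212 without the young day 10 library (highest 10.095, without the young day 6 library) and to -0.247 without its 2 richest cells. The share of dividing members was 96.842% unthinned, 93.923% at 3 UMIs, 67.403% at 10 UMIs and 69.231% when thinned to 1000 UMIs. The genes apart between ages numbered 44 higher and 47 lower in middle-aged mice at a minimum of 50 UMIs and 13 and 5 at 200. The higher genes numbered 2 within the *Ly6c2*-high group, 16 with no Cd3 UMI and 7 without the basophil-like cells, the last an alternative chosen after seeing the data, as were the non-neutrophil denominator, leaving out shallow members and leaving out a gene's richest cells. The cause of these shifts was not tested. No paired analysis was possible because the labels number no replicates. Ages were compared within each day, with 1 library each. The 190 cells and 1 library per age and day limit every comparison between ages.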
